A study of Mus musculus with 2 samples.

Results

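The barcodes described here were low in RNA and rich in *S100a8* and *S100a9*, the genes of calprotectin, a protein that fills the cytosol of neutrophils. They were chosen by their own values: a total of at least 100 and under 1500 UMIs (unique molecular identifiers, each counted as 1 captured transcript), at least 10 UMIs and 5% of all UMIs from *S100a8* and *S100a9* together, and under 10% of UMIs from mitochondrial genes. The rule found 210 barcodes in the antibiotic library and 296 in the vehicle library, 506 in all, at 360 distinct sequences of the 737280 barcodes in the kit. They held 0.0950% and 0.119% of all UMIs, beside 7116 and 8982 called cells. Since the total and the level of *S100a8* and *S100a9* chose these barcodes, both are given as a description only.

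The libraries held CD45+ leukocytes sorted from the livers of 6-week-old female mice, 1 library from mice treated for 1 week with antibiotics in the drinking water (ampicillin and metronidazole at 1 mg/mL each, neomycin and vancomycin at 0.5 mg/mL each), and 1 from vehicle-treated mice. The number of mice behind each library was not stated in the sources at hand. With 1 library per group there is no replicate check: no p-value was computed, and every interval is an exact 95% interval for counting error only. Droplets were captured with the Chromium Single Cell 3′ kit, which tags all transcripts of 1 droplet with the same 16-base barcode, drawn from a fixed set that both libraries used. A called cell had at least 200 detected genes, under 10% mitochondrial UMIs and at least 1234 UMIs in the antibiotic library or 1548 UMIs in the vehicle library, which is 0.1 times the 99th percentile among the top 3000 barcodes of that library. Total depth was 29811401 and 41474311 UMIs, and the median called cell had 3318 and 3518 UMIs.

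Neutrophils are short-lived granulocytes that fill their granules in a fixed order while they mature in bone marrow. Promyelocytes make the azurophil granule proteases and myeloperoxidase, myelocytes and metamyelocytes make the proteins of specific granules, and band and segmented cells make gelatinase granules and then turn to receptors and cytokines. The transcripts are therefore staged: *Camp* (cathelicidin), *Ngp* (neutrophilic granule protein) and *Ltf* (lactoferrin) belong to cells still making specific granules, whereas *Retnlg* (resistin-like gamma), *Il1b* (interleukin 1β) and *Cxcr2* (the receptor that draws neutrophils out of marrow and toward tissue) belong to mature cells. Mature neutrophils hold little RNA and are often lost below the threshold that calls a cell.

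The genes that the comparison turns on lie in these places on GRCm38 (mm10) in the GENCODE vM21 annotation. *S100a8* lies at chr3:90668978-90670035 on the plus strand and *S100a9* close by, at chr3:90692632-90695721 on the minus strand. The granule genes share a chromosome: *Camp* at chr9:109847379-109849617 (minus strand), *Ngp* at chr9:110419747-110423012 (plus) and *Ltf* at chr9:111019271-111042767 (plus). The mature genes are spread out, *Retnlg* at chr16:48872621-48874496 (plus), *Il1b* at chr2:129364570-129371139 (minus) and *Cxcr2* at chr1:74153989-74161246 (plus).

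The libraries shared most of these barcodes, which bears on every result that follows. A barcode was called shared when the other library held at least 10% as many UMIs at the same sequence, a limit set after the values were seen. By this measure 209 of 210 antibiotic barcodes (99.5%, 97.4% to 99.99%, Clopper-Pearson) and 281 of 296 vehicle barcodes (94.9%, 91.8% to 97.1%) were shared, and 146 sequences met the whole rule in both libraries. No barcode lay near the limit. The lowest shared barcode had 45.0% of its antibiotic UMIs and 34.3% of its vehicle UMIs in the other library, whereas the barcodes called private had 0.269% in the antibiotic library and 0.243% to 1.16% in the vehicle library. Of the shared members, 2 antibiotic barcodes were called cells in the vehicle library and 2 vehicle barcodes were called cells in the antibiotic library. The origin of the UMIs at shared barcodes was not tested, so values of shared members may not describe liver leukocytes of either group of mice. The 2 libraries' shared barcodes cannot be counted as separate cells. The number of members, the granule share and the counts of genes that differed are therefore given with them, without them and for them alone.

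**Figure D1:**
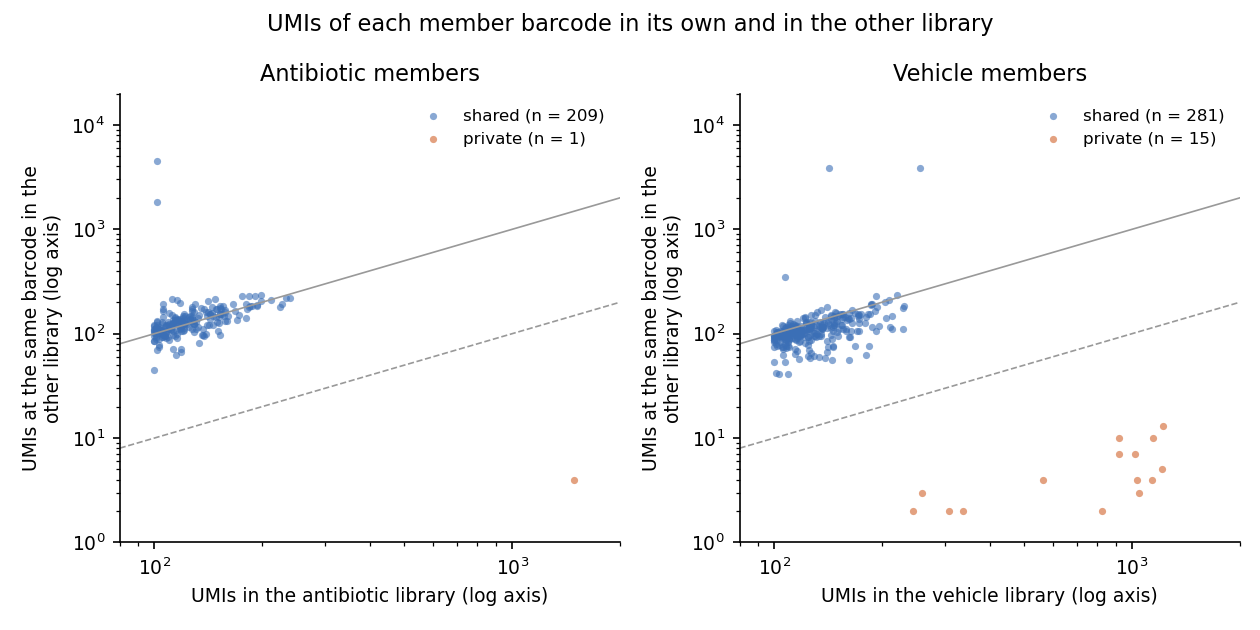
Each point is 1 member barcode, with its UMIs in its own library on the horizontal log axis and the UMIs at the same barcode in the other library on the vertical log axis, for antibiotic members (left panel) and vehicle members (right panel). The solid line marks equal UMIs and the dashed line 10%: 209 and 281 shared barcodes lie above the dashed line, mostly along the solid one, and 1 and 15 private barcodes lie at 2 to 13 UMIs in the other library.

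The barcode sequences themselves show the finding, since the same 16 bases carried the same genes in both libraries. The 4 sequences that met the rule in both libraries and had the most UMIs overall are shown first, in lower case throughout because no base is singled out.
Shared barcode 1: acgatacgtgacaaat
Shared barcode 2: acccactgtcctccat
Shared barcode 3: cgatgtatcgtatcag
Shared barcode 4: atccacctcacatacg
Shared barcode 1 had 234 UMIs in the antibiotic library and 220 in the vehicle library, with 17 and 10 UMIs of *Camp* and 2 and 2 of *Elane* (neutrophil elastase). Shared barcode 2 had 228 and 193 UMIs, with 12 and 10 of *Camp* and 2 and 3 of *Ngp*. Shared barcode 3 had 212 and 209 UMIs, with 18 and 16 of *Camp* and 18 and 21 of *Ngp*. Shared barcode 4 had 184 and 230 UMIs, with 13 and 16 of *Camp* and 9 and 28 of *Ngp*. All 4 held *Camp* and *Ngp* in both libraries, and the only mature transcript among them was 1 *Retnlg* UMI at shared barcode 3 in the antibiotic library.

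Private barcodes looked different. The single antibiotic one and the 4 vehicle ones with the most UMIs are shown for contrast.
Private antibiotic barcode: acagctacacggacaa
Private vehicle barcode 1: acaccctcacaggttt
Private vehicle barcode 2: ttcccagaggctaggt
Private vehicle barcode 3: tctattgtcagcacat
Private vehicle barcode 4: agcgtcgagcgagaaa
The private antibiotic barcode had 1487 UMIs in the antibiotic library and 4 in the vehicle library, with 33 UMIs of *Retnlg* and 0 of *Camp*, *Ngp* and *Ltf*. It lay above the antibiotic library's threshold of 1234 UMIs and was a called cell. Private vehicle barcode 1 had 13 UMIs in the antibiotic library and 1221 in the vehicle library, there with 9 UMIs of *Il1b* and 5 of *Retnlg*. Private vehicle barcode 2 had 5 UMIs in the antibiotic library and 1214 in the vehicle library, there with 2 UMIs each of *Retnlg* and *Cxcr2*. Private vehicle barcode 3 had 10 and 1147 UMIs and private vehicle barcode 4 had 4 and 1135, each with 24 *Retnlg* UMIs in the vehicle library. None of these 5 held a *Camp*, *Ngp* or *Ltf* UMI.

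The letters of the barcodes did not set the shared ones apart. Their GC content ran from 31.3% to 68.8% with a median of 50%, the same range and median as in the whole kit. None of the 344 shared sequences was 1 letter away from a called cell's barcode or from another shared sequence, and the closest pairs differed at 2 positions. The same held for the 16 private sequences, none of which was 1 letter from a called cell or a shared sequence. No such distances were computed for the whole kit, so they say nothing particular to shared sequences.

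By the 10% limit, sharing was not particular to the members. Of the other barcodes in the same UMI window, 1203 of 1726 in the antibiotic library (69.7%, 67.5% to 71.9%) and 1904 of 3961 in the vehicle library (48.1%, 46.5% to 49.6%) were shared. Below 200 UMIs, all 204 antibiotic and all 270 vehicle members were shared, beside 87.2% of 1255 and 58.6% of 2880 other barcodes. The limit is a share of the barcode's own UMIs, so a small barcode can pass it with few UMIs in the other library. The other barcodes of the window had medians of 118 and 18 UMIs in the other library, against 127 and 106 for members. Sets with more UMIs per barcode were shared less, but rates of sets with unlike totals are not directly comparable. Of called cells outside the rule, 1.46% in the antibiotic library and 1.08% in the vehicle library were shared, and the median called cell had 26 and 23 UMIs in the other library. Low-RNA B cell barcodes, defined by at least 2 UMIs of *Cd79a*, *Cd79b* or *Ms4a1* and no *Cd3* transcript within the same UMI window, were shared in 18 of 89 (20.2%) and 43 of 199 (21.6%) cases. Low-RNA T cell barcodes, with the 2 gene sets exchanged, were shared in 10.4% and 8.90%. These B and T cell barcodes had medians of 587 to 806 UMIs, against 119.5 and 126 in the members. Below the window the pattern went on: all 837 antibiotic and all 850 vehicle barcodes with 50 to 99 UMIs and at least 5 UMIs of *S100a8* and *S100a9* were shared.

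**Figure D2:**
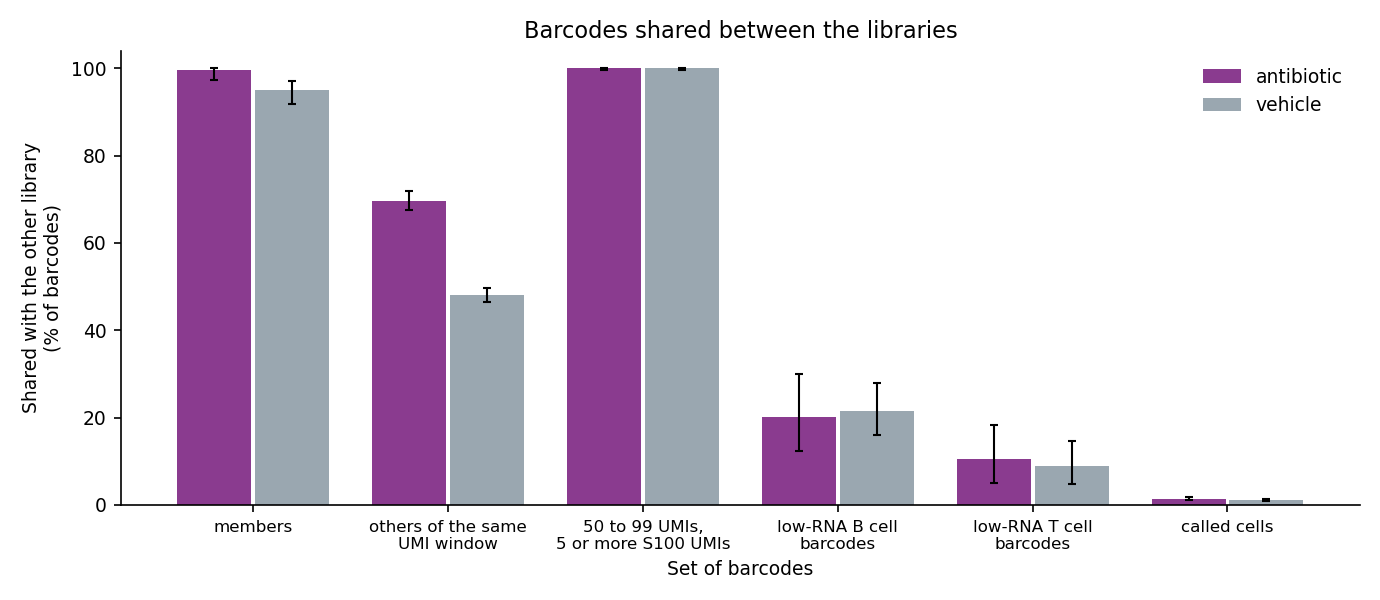
Bars give the percent of barcodes shared between the libraries (vertical axis) in 6 sets of barcodes, antibiotic library left and vehicle library right in each pair, with exact 95% binomial intervals. The members reach 99.5% and 94.9%, against 69.7% and 48.1% of other barcodes in the same UMI window and 1.46% and 1.08% of called cells.

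At the same sequence the content went together in both libraries. Over the 340 shared sequences that were a called cell in neither library, the median ratio of antibiotic to vehicle UMIs was 0.896 (5th to 95th percentile 0.511 to 1.29), beside 0.719 for the libraries' total UMIs. Total UMIs at the same sequence had a Pearson correlation of 0.507 and a Spearman correlation of 0.465, and the percent of UMIs from *Camp*, *Ngp* and *Ltf* a Spearman correlation of 0.505 (340 sequences, selected on one of the 2 totals, with no p-value). A *Camp*, *Ngp* or *Ltf* transcript was found in both libraries at 338 of the 340. Several rarer genes went together too. Of 55 sequences with an *Elane* UMI in the antibiotic library, 37 (67.3%, 53.3% to 79.3%) had one in the vehicle library, against 12 of 285 (4.21%, 2.19% to 7.24%) without. For *Prtn3* (proteinase 3) the shares were 32.4% of 37 and 6.93% of 303, and for *Ltf* 65.4% of 133 and 28.0% of 207. For *Hmgb2*, a chromatin protein gene of dividing cells, the intervals overlapped, at 39.5% (29.2% to 50.7%) and 29.5% (24.0% to 35.6%).

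The number of members depended on what they were set against. Per 1000 called cells there were 29.5 members (25.7 to 33.8, exact Poisson) in the antibiotic library and 33.0 (29.3 to 36.9) in the vehicle library, a ratio of 0.895 (0.747 to 1.07) that counting error covers. As a share of the barcodes of the window with under 10% mitochondrial UMIs they made up 11.8% (10.3% to 13.4%) of 1785 and 8.59% (7.67% to 9.57%) of 3447, and these intervals did not overlap. The shared members alone stood at a ratio of 0.939 per called cell (0.781 to 1.13). Without them, 1 antibiotic and 15 vehicle barcodes were left, 0.141 (0.00356 to 0.783) and 1.67 (0.935 to 2.75) per 1000 called cells, a ratio of 0.0841 (0.00200 to 0.547). A smaller number of neutrophils and less RNA per neutrophil cannot be told apart from such counts.

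Size separated the 2 kinds of barcode. Shared members had a median of 119 UMIs in the antibiotic library (100 to 239) and 125 in the vehicle library (100 to 256), from a median of 86 and 89 genes. The private antibiotic barcode had 1487 UMIs, and the 15 private vehicle barcodes had a median of 922 (244 to 1221). All 204 antibiotic and 270 vehicle members under 200 UMIs were shared. From 200 to 399 UMIs there were 5 shared antibiotic members, and in the vehicle library 11 shared and 4 private ones. At 400 UMIs and above there was no shared member, but 1 private antibiotic and 11 private vehicle barcodes.

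**Figure D3:**
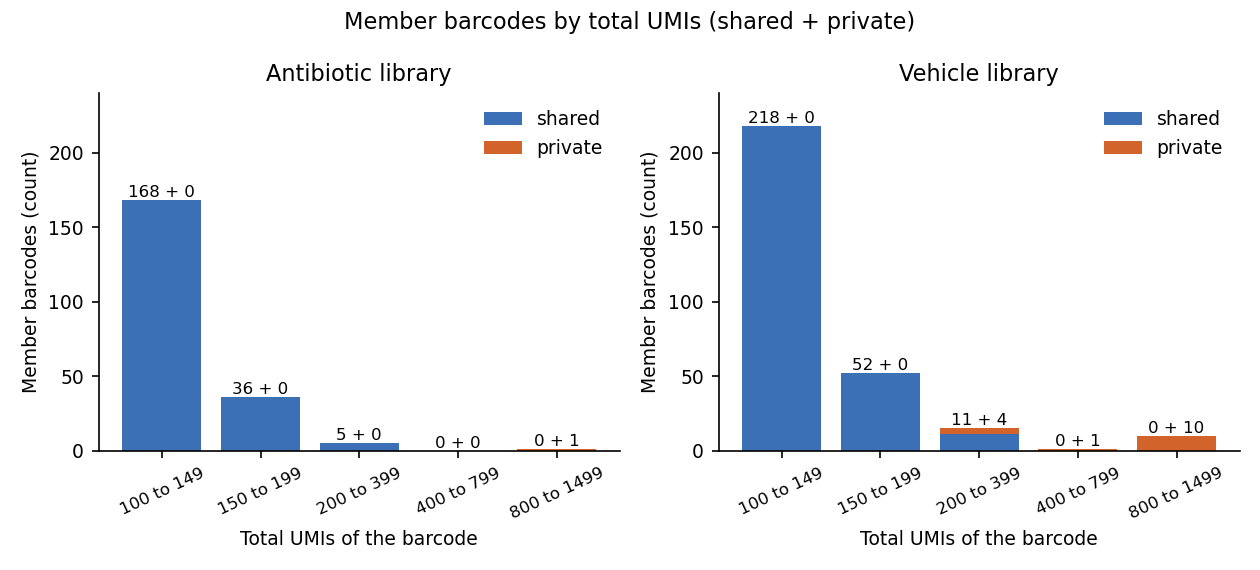
Stacked bars count member barcodes (vertical axis) by total UMIs (horizontal axis) in the antibiotic library (left) and the vehicle library (right), split into shared and private; the numbers above each bar are shared + private. In both libraries the lowest band holds most members, 168 and 218, all of them shared.

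The neutrophil label was checked against 12 markers and against markers of 13 other cell types. In shared members the neutrophil markers made up 24.96% of antibiotic UMIs and 25.1% of vehicle UMIs, and in private members 32.3% and 19.7%, but these sums include the *S100a8* and *S100a9* that the rule used. The other 10 markers made up 12.7% and 13.2% in shared members, with *Camp* as the most abundant, and 2.76% (1.99% to 3.72%) and 1.26% (1.07% to 1.48%) in private members, with *Retnlg* as the most abundant. In barcodes of 10 to 49 UMIs, taken here as free RNA, they made up 0.317% and 0.320%. Barcodes under 1500 UMIs with at least 3 *Camp*, *Ngp* or *Ltf* UMIs had median totals of only 51 and 55 UMIs. The band of 10 to 49 UMIs may therefore hold barcodes of the same kind and is an imperfect measure of free RNA. The defining markers split between the kinds. *Csf3r*, the G-CSF receptor, and *Mmp8*, a collagenase, were at 0 UMIs in shared members of both libraries, whereas *Csf3r* had 1 UMI in the private antibiotic barcode and 17 UMIs in private vehicle barcodes. *Ly6g*, the surface marker used to sort mouse neutrophils, had 2 and 5 UMIs in shared members and 0 and 0 in private ones. Of other cells, B cell markers took 0.153% and 0.281% of the UMIs of shared members, T cell markers 0.149% and 0.161%, monocyte markers 0.216% and 0.139%, and the markers of each of the other 10 types at most 0.0750%. In barcodes of 10 to 49 UMIs B cell markers took 0.762% and 0.967% and T cell markers 0.6001% and 0.549%, more than in the members. Monocyte markers went the other way, at 0.0816% and 0.0798% in those barcodes. So did basophil and mast cell markers, at 0.00743% and 0.00794%, against 0.0596% and 0.0402% in shared members. In shared members these were 16 UMIs in only 3 antibiotic barcodes and 15 UMIs in only 1 vehicle barcode. Scaled by the markers of other cell types, free RNA would make up 38.4% of the UMIs of all antibiotic members and 34.5% of those of all vehicle members. That scaling counted every UMI of those markers as free RNA, monocyte markers included.

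Shared members carried the specific granule program. The 13 genes of that list made up 14.8% of their antibiotic UMIs and 15.2% of their vehicle UMIs, and 12 of the 13 were detected in each library. *Camp* stood at 58558 CPM (counts scaled to 1000000 UMIs) in the antibiotic library and 61394 CPM in the vehicle library, and *Ngp* at 52114 and 53121 CPM. These levels were close to those of *S100a9*, 70255 and 67900 CPM, which the rule had selected on. *Lcn2* (lipocalin 2, which binds bacterial siderophores) reached 11697 and 11700 CPM, *Chil3* (a chitinase-like protein) 10132 and 9692 CPM, and *Ltf* 4694 and 4980 CPM. In the barcodes of 10 to 49 UMIs *Camp* was at 1147 and 1141 CPM and *Ngp* at 1206 and 1164 CPM. Every shared member held at least 1 *Camp*, *Ngp* or *Ltf* UMI, with a median of 14 in the antibiotic library (1 to 37) and 15 in the vehicle library (1 to 52).

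*Camp* was detected in 207 of 209 shared antibiotic members and 280 of 281 shared vehicle members, and in 99.04% and 99.3% after each was thinned to 100 UMIs. Low-RNA B cell barcodes, which should lack the gene, had it in 0 of 89 and 3 of 199 (1.51%), at medians of 806 and 587 UMIs. *Ltf* was detected in 87 of 209 (41.6%) and 121 of 281 (43.1%), or 34.0% and 37.7% after thinning, and in none of the low-RNA B cell barcodes.

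Azurophil genes were also present in shared members. *Elane* had 75 UMIs in 36 antibiotic barcodes and 100 UMIs in 41 vehicle barcodes, 2794 and 2677 CPM, against 10.6 and 9.60 CPM in the barcodes of 10 to 49 UMIs. *Serpinb1a*, an inhibitor of these proteases, had 32 and 52 UMIs, *Prtn3* 30 and 29, *Ms4a3* 19 and 24, and *Mpo* (myeloperoxidase) 15 and 9. All 6 genes of the list were detected in each library, in 81 and 105 barcodes, and none of them in a private barcode.

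Genes of dividing cells accompanied them. The 16 cell cycle genes, all detected in each library, made up 1.62% of the UMIs of shared antibiotic members and 1.37% of shared vehicle members, with *H2afz* (a histone variant) at 4172 and 3748 CPM, *Hmgb2* at 2943 and 3026 CPM and *Stmn1* (stathmin, a tubulin regulator) at 1192 and 1098 CPM. *Cebpe*, the transcription factor that drives specific granule genes, had 37 and 39 UMIs. Ribosomal protein genes took 15.9% and 15.4% of UMIs.

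Mature genes were nearly missing from shared members. *Retnlg* had 9 UMIs in 7 of 209 antibiotic barcodes and 5 UMIs in 4 of 281 vehicle barcodes, 335 and 134 CPM, beside 229 and 245 CPM in the barcodes of 10 to 49 UMIs. *Cxcr2* had 0 and 1 UMI. *Il1b* had 0 UMIs in both libraries, of 26845 and 37349 UMIs, which allows up to 112 and 80.3 CPM. *Msrb1* (a methionine sulfoxide reductase), with 26 and 32 UMIs, was the mature gene with the most UMIs in these barcodes.

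Private members had the opposite content in the granule and mature genes compared. *Camp*, *Ngp* and *Ltf* were at 0 UMIs in the private antibiotic barcode and in all 15 private vehicle barcodes, whereas *Retnlg*, *Il1b* and *Cxcr2* together had 36 UMIs in the antibiotic barcode and 161 in the vehicle barcodes (0 to 29 a barcode, median 7), with at least 1 in 14 of the 15. *Retnlg* had 33 UMIs and 105 UMIs, 22192 CPM in the antibiotic barcode and 8616 CPM in the vehicle ones. *Il1b* had 0 UMIs in the antibiotic barcode and 42 in 10 of the 15 vehicle barcodes, and *Cxcr2* had 3 UMIs and 14 UMIs. Thinned to 100 UMIs, *Retnlg* was left in 0 of 1 antibiotic barcode and 40% of the 15 vehicle barcodes. Other genes of the specific granule list were present. The list had 6 UMIs from 3 genes in the antibiotic barcode and 68 UMIs from 5 genes in 13 vehicle barcodes. Of these, *Pglyrp1* stood at 2872 CPM in private vehicle members, against 4391 CPM in shared ones.

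**Figure D4:**
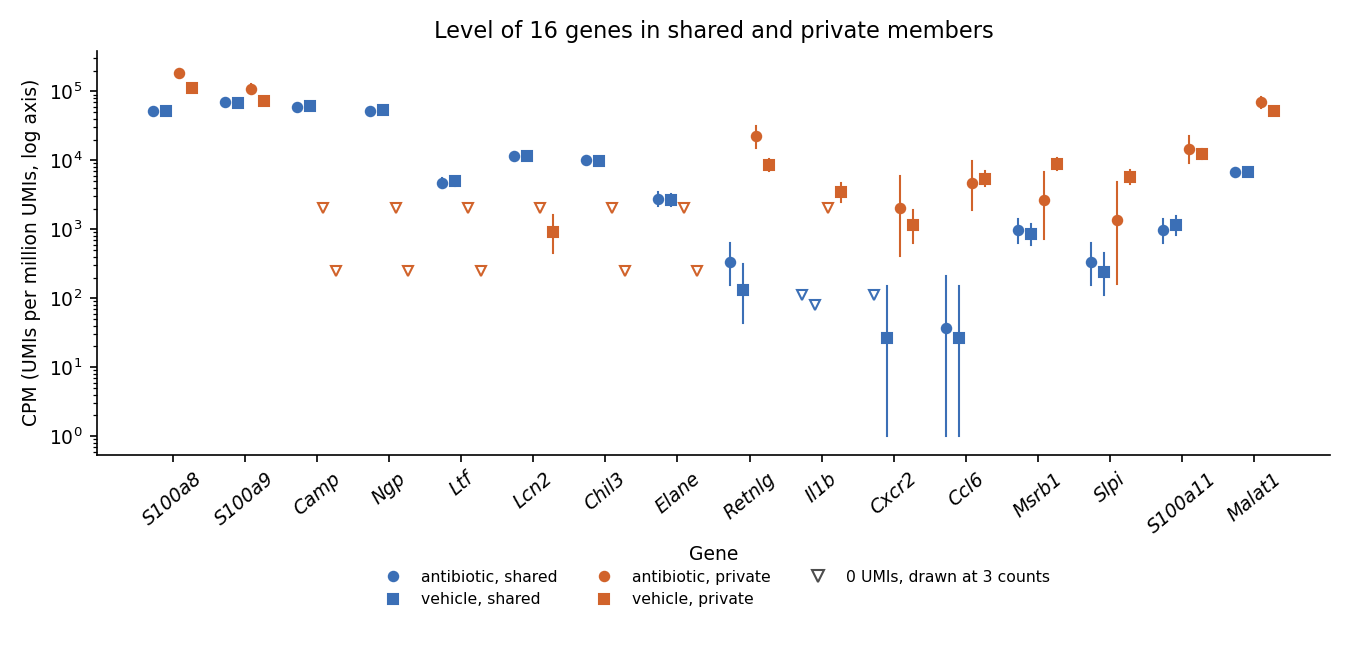
Levels of 16 genes (horizontal axis) in CPM on a vertical log axis, for shared antibiotic, shared vehicle, private antibiotic and private vehicle members, with exact 95% Poisson intervals that are cut at 1 CPM. Open triangles mark genes at 0 UMIs, drawn at the level of 3 counts: *Camp*, *Ngp*, *Ltf*, *Chil3* and *Elane* are at 0 in both private groups and *Il1b* in both shared groups.

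Within the vehicle library, shared members were set against private ones gene by gene. Of 216 genes with at least 30 UMIs in both kinds together, 169 (78.2%) differed by at least 1.5-fold, 113 higher and 56 lower in shared members, and the interval excluded 1 for 94 and 49. All 8 measured specific granule genes, both measured azurophil genes and all 5 measured cell cycle genes had intervals above 1, and all 5 measured mature genes had intervals below 1. Against a floor of 3 UMIs over the private barcodes, *Camp* was 249-fold, *Ngp* 216-fold, *Chil3* 39.4-fold, *Ltf* 20.2-fold and *Elane* 10.9-fold higher in shared members. The lower bounds of their exact intervals were 203-fold, 175-fold, 31.9-fold, 16.3-fold and 8.68-fold. *Fcnb* (ficolin B), *Serpinb1a*, *Cebpe* and *Plac8* were likewise at 0 in private barcodes, and *Lcn2* was 12.96-fold higher in shared members (7.17 to 26.2).

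Lower in shared vehicle members than in private ones were *Ccl6*, a chemokine, with 1 UMI and 66 UMIs (ratio 0.00494, 0.000123 to 0.0285), and *Retnlg*, with 5 and 105 UMIs (0.0155, 0.00494 to 0.0374). *Il1b* was at least 42.9-fold lower. *Slpi*, a protease inhibitor, had a ratio of 0.0419 (0.0184 to 0.0843), *S100a6* 0.0645 (0.0366 to 0.108) and *S100a11* 0.0923 (0.0642 to 0.130). *Wfdc17*, *Lst1*, *Ifi27l2a*, *Fxyd5*, *Junb*, *Tyrobp*, *Msrb1* and *Klf2* completed the 15 genes that the naming rule picked, together with *Malat1*, a nuclear RNA, at 6694 CPM in shared and 51535 CPM in private members (ratio 0.130, 0.112 to 0.151). The private antibiotic barcode had 69267 CPM of *Malat1*, against 6742 CPM in shared antibiotic members.

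The 2 genes of the rule were also in different proportion, which the rule did not use. In shared members *S100a8* had 0.739 times the UMIs of *S100a9* in the antibiotic library (0.689 to 0.792) and 0.758 times in the vehicle library (0.714 to 0.804). In private members the ratio was 1.73 (1.42 to 2.11) and 1.52 (1.40 to 1.66).

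Granule genes against mature genes, summed over all members, gave 3097 and 45 UMIs in the antibiotic library and 4463 and 167 UMIs in the vehicle library. The granule share of the 6 genes was 98.6% (98.1% to 98.95%) in the antibiotic library and 96.4% (95.8% to 96.9%) in the vehicle library, a log2 ratio of granule over mature UMIs of 1.36 (0.88 to 1.88) for antibiotic over vehicle. That difference came with the private barcodes. Among shared members alone the share was 99.7% (99.5% to 99.9%) and 99.9% (99.7% to 99.95%), from 9 and 6 mature UMIs, and the log2 ratio was -1.11 (-2.89 to 0.54), of the opposite sign and covered by counting error. Among private members alone the share was 0% in both libraries, which counting error covers up to 9.74% and 2.27%, so no ratio could be formed. Leaving out the single private antibiotic barcode, as the library's own cell threshold does, moved the log2 ratio to 3.69 (2.72 to 4.84).

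**Figure D5:**
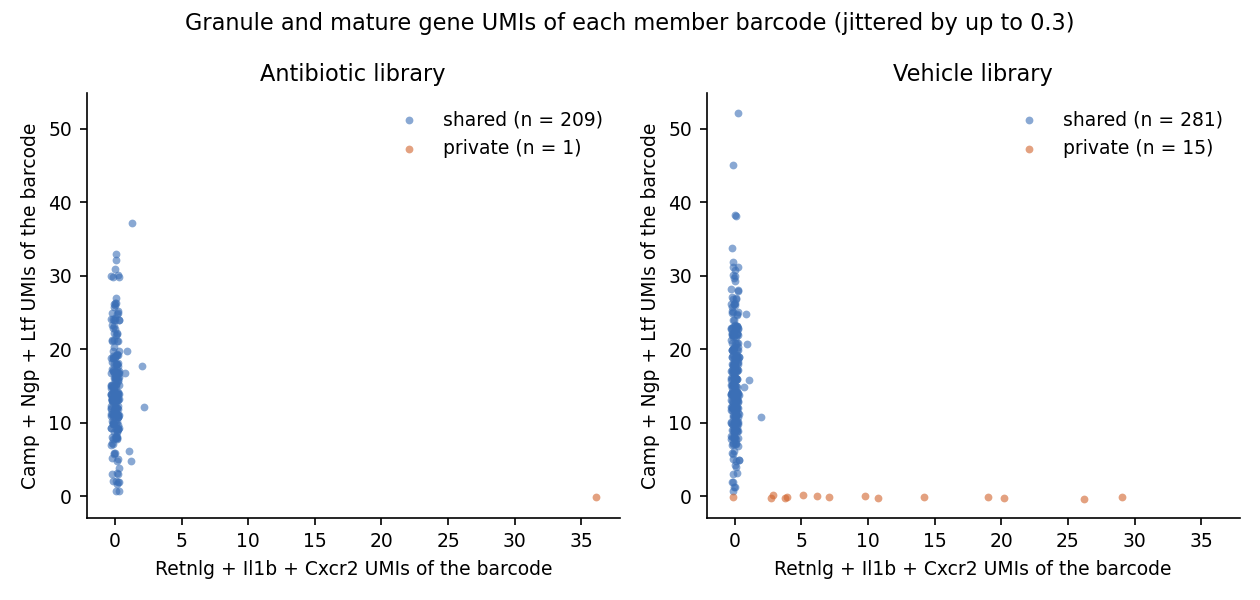
Each point is 1 member barcode, with its UMIs of *Retnlg*, *Il1b* and *Cxcr2* on the horizontal axis and its UMIs of *Camp*, *Ngp* and *Ltf* on the vertical axis (jittered by up to 0.3), for the antibiotic library (left) and the vehicle library (right). Shared members run up the vertical axis with at most 2 mature UMIs, and private members lie on the horizontal axis with 0 granule UMIs.

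Across all genes, 322 had at least 30 UMIs in the members of both libraries together, and 83 of them (25.8%) differed by at least 1.5-fold between antibiotic and vehicle, 29 higher (9.01%) and 54 lower (16.8%). The interval of the ratio lay above 1 for 27 genes and below 1 for 33. With shared members alone 262 genes were measured and 33 (12.6%) passed 1.5-fold, 12 higher (4.58%) and 21 lower (8.02%), with intervals above 1 for 4 and below 1 for 7. The median log2 ratio over all genes was 0.04 and 0.01 in these 2 comparisons. Without shared members 47 genes were measured and 26 (55.3%) passed 1.5-fold, 4 higher (8.51%) and 22 lower (46.8%), with intervals above 1 for 4 and below 1 for 6, but this set 1 antibiotic barcode against 15 vehicle barcodes. With the free RNA subtracted from all members, 151 of 322 passed 1.5-fold.

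Mature neutrophil genes were lower in antibiotic members: of 6 measured, 5 passed 1.5-fold and all 6 had intervals below 1. Only 1 antibiotic member was private, against 15 vehicle members. That 1 barcode held 33 of 42 antibiotic UMIs of *Retnlg*, 7 of 8 of *Ccl6* and 5 of 6 of *Wfdc17*. It held 3 of 7 of *Hdc* and 4 of 30 of *Msrb1*. The intervals take UMIs of 1 barcode as independent counts. *Ccl6* had 8 UMIs and 67 UMIs (ratio 0.209, 0.0866 to 0.435), *Msrb1* 30 and 141 (0.372, 0.242 to 0.555), *Wfdc17* 6 and 34 (0.309, 0.106 to 0.743), *Hdc* (histidine decarboxylase) 7 and 29 (0.422, 0.156 to 0.985) and *Retnlg* 42 and 110 (0.668, 0.456 to 0.961, just short of 1.5-fold). *Il1b* had 0 UMIs and 42 UMIs, 8.01-fold lower against a floor of 3 UMIs and at least 6.23-fold lower by the exact interval. All 42 lay in 10 private vehicle barcodes. Among private members alone *Il1b* was at least 1.33-fold lower by the exact interval. Among shared members 1 of these genes was measured, *Msrb1*, at a ratio of 1.13 (0.647 to 1.96), and *Il1b* was at 0 in both. Without shared members 2 of the 6 were higher and 4 lower, with *Retnlg* at 2.58 (1.69 to 3.84), of the opposite direction to all members, and *Msrb1* at 0.301 (0.0805 to 0.792).

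Specific granule genes were mostly higher in antibiotic members, 8 of 10 measured, with 4 intervals above 1: *Ngp* at a ratio of 1.23 (1.15 to 1.32), *Camp* 1.20 (1.12 to 1.28), *Chil3* 1.31 (1.12 to 1.54) and *Lcn2* 1.23 (1.06 to 1.42). Private members gave 1487 of 28332 antibiotic UMIs and 12186 of 49535 vehicle UMIs, and CPM over all members divides by these too. Genes with 0 UMIs in private members, such as *Camp*, *Ngp* and *Chil3*, therefore have higher ratios over all members than in shared members. Of the 10, *Cd177* (a surface protein of neutrophils, 17 and 14 UMIs) passed 1.5-fold upward and *Cybb* (6 and 24) downward, both with intervals that held 1. All 4 measured azurophil genes were higher, *Prtn3* past 1.5-fold (1.81, 1.05 to 3.12). Like *Camp*, they had 0 UMIs in private members, so their ratios over all members are higher than in shared members. In shared members 3 of the 4 were higher and 1 was lower, and all 4 intervals held 1. *Prtn3* was at 1.44 (0.835 to 2.49) and *Serpinb1a* at 0.856 (0.533 to 1.36) in these members. Among shared members alone 4 of the 10 specific granule genes were higher and 6 lower, and the median log2 ratio was -0.01. There *Camp* was at 0.954 (0.894 to 1.02) and *Ngp* at 0.981 (0.916 to 1.05). *Chil3* was at 1.05 (0.890 to 1.23) and *Lcn2* at 1.00 (0.862 to 1.16) in the same members. The cell cycle list was higher in 8 of 8 measured genes, 3 past 1.5-fold: *Tubb5* (a β-tubulin, 2.76, 1.504 to 5.19), *Ube2c* (a mitotic ubiquitin-conjugating enzyme, 1.82, 1.02 to 3.24) and *Hmgn2* (a nucleosome-binding protein, 1.72, 1.22 to 2.44). In shared members 7 of 8 were higher and 1 passed 1.5-fold, *Tubb5*, with 30 UMIs and 19 UMIs (2.20, 1.20 to 4.13).

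The other genes named by rule as higher in antibiotic members were *Aprt* (an enzyme of adenine salvage), *Plac8*, *Atp5b* (an ATP synthase subunit) and *Cebpe*, at ratios of 1.70 to 2.33. In shared members the intervals of all 4 held 1. *Aprt* was at 1.67 (0.795 to 3.56) and *Plac8* at 1.47 (0.896 to 2.43) there. *Atp5b* was at 1.89 (0.898 to 4.07) and *Cebpe* at 1.32 (0.819 to 2.12). Those named as lower were *Ifi27l2a* (an interferon-induced gene, 0 and 30 UMIs), *Btg1* (2 and 42), *Slpi* (11 and 79), *Lst1* (4 and 37), *Junb* (an AP-1 subunit, 5 and 40), *S100a6* (23 and 109) and *S100a11* (48 and 195). Of the 3 measured immediate early and stress genes 2 passed 1.5-fold downward. Of the 4 measured interferon response genes only *Ifi27l2a* passed 1.5-fold, and of 3 transcription factors *Cebpe* passed upward and *Klf2* downward (6 and 37 UMIs). *Malat1* had 284 and 878 UMIs (0.566, 0.493 to 0.647), and 181 and 250 in shared members (1.01, 0.827 to 1.22). The migration and sensing list had 1 measured gene, *Fcer1g* (0.904, 0.619 to 1.30), and the survival and calprotectin partner lists had 0. Among shared members *Slpi* had 9 and 9 UMIs, *Junb* 4 and 6, and *S100a6* 7 and 18, counts too low to carry a difference.

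*Ly6c2*, a surface protein of monocytes and also of developing myeloid cells in marrow, was the 1 measured gene of the monocyte list, with 54 UMIs in shared antibiotic members and 46 in shared vehicle members (ratio 1.63, 1.08 to 2.48). Genes lower among shared members were of other kinds. *Cd74*, the MHC class II invariant chain, had 34 UMIs in the antibiotic library and 90 in the vehicle library (ratio 0.526, 0.343 to 0.788), *H2-Ab1*, a class II chain, 13 and 37 (0.489, 0.238 to 0.941), and *Nkg7*, a cytotoxic granule gene, 16 and 42 (0.530, 0.278 to 0.963). These are genes of B cells, antigen-presenting cells and cytotoxic lymphocytes. The sum of B cell markers differed in the same barcodes (0.153% and 0.281% of UMIs), as in the barcodes of 10 to 49 UMIs (0.762% and 0.967%). In shared members that sum was 41 and 105 UMIs, of which the antibody gene *Igkc* alone gave 22 and 71 (ratio 0.431, 0.254 to 0.704). The part of such other cells in the result was not tested. *Cybb*, the membrane subunit of the NADPH oxidase, had 6 and 24 UMIs (0.348, 0.116 to 0.873), whereas its partner *Cyba* had 67 and 124 (0.752, 0.550 to 1.02) and *Rac2* 56 and 77 (1.01, 0.704 to 1.45).

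Above the window, barcodes that met the *S100a8* and *S100a9* rule with 1500 UMIs or more numbered 2 in the antibiotic library and 13 in the vehicle library. They held both programs. In the vehicle library 7 had 587 to 1826 UMIs of *Camp*, *Ngp* and *Ltf* among 5340 to 12921 UMIs, and the other 6 had at most 55 of them and 10 to 197 UMIs of the mature genes. Both antibiotic barcodes were of the mature kind, with 65 and 72 UMIs of the mature genes and at most 1 granule UMI.
Granule-rich vehicle barcode: ctagagttctctgctg
Mature antibiotic barcode: ccaatccgttccacgg
The granule-rich vehicle barcode shown, the one with the most UMIs, had 66 UMIs in the antibiotic library and 12921 in the vehicle library, there with 528 of *Camp*, 642 of *Ngp* and 0 of *Elane*. The mature antibiotic barcode had 2199 UMIs there and 24 in the vehicle library, with 53 of *Retnlg* and 11 of *Il1b*.

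These granule-rich cells differed from shared members in content. Over the 7, *S100a8* had 1.36 times the UMIs of *S100a9*, against 0.739 and 0.758 times in shared members, and *Elane* had 0 UMIs, against 75 and 100 in shared members. Sharing was low too, with a median of 0.615% of their UMIs in the antibiotic library. In 1 of the 7 it reached 25.7% (3231 UMIs).

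Most granule transcripts lay outside both. In the antibiotic library the members held 16.2% of all *Camp* UMIs, barcodes of 50 to 99 UMIs 42.9%, barcodes under 50 UMIs 34.6% and those of 1500 or more 0.960%. In the vehicle library the shares of *Camp* were 15.7%, 29.2%, 22.8% and 27.8%. *Il1b* lay higher up, with 61.5% of 52 UMIs in antibiotic barcodes and 65.5% of 226 UMIs in vehicle barcodes of 1500 UMIs or more. *Cxcr2* did too, with 64% of 25 and 60% of 95 UMIs. *Retnlg* did not: of its 946 antibiotic UMIs, 73.8% lay in barcodes under 50 UMIs and 14.3% in those of 1500 or more. Of its 1718 vehicle UMIs, the shares were 42.5% and 42.8%. The band of 1500 UMIs or more includes barcodes outside the *S100a8* and *S100a9* rule. Of the 32 antibiotic *Il1b* UMIs in that band, the 2 barcodes that met the rule held 11 and 0. Of the 148 vehicle *Il1b* UMIs there, none of the 13 barcodes that met the rule held more than 9. Under 1500 UMIs, 2247 antibiotic and 2294 vehicle barcodes held at least 3 granule UMIs, and 98.8% and 98.0% of these had a granule UMI in the other library. For 3 mature UMIs the numbers were 54 and 56, with a mature UMI in the other library at 66.7% and 42.9%.

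At the edges of the rule the barcodes went on without a break. Members with 10 or 11 *S100a8* and *S100a9* UMIs numbered 38 in the antibiotic library and 56 in the vehicle library, with 10.1% and 9.64% of UMIs from granule genes. Barcodes just outside, with 8 or 9 such UMIs and the other limits met, numbered 38 and 53, with 9.28% and 8.63%. Members of under 110 UMIs numbered 61 and 68, and barcodes of 90 to 99 UMIs that met the other limits 87 and 98, with 12.5% and 13.7% of UMIs from granule genes inside and 13.7% and 13.5% outside. All of these were shared. At 5% to 6% of UMIs from *S100a8* and *S100a9* there were 4 and 5 members, and at 4% to 5% there were 0 and 1 barcodes. The mitochondrial limit alone removed 0 and 2.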

How the data were processed

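UMI counts were used in the form the authors deposited, as whole numbers per gene and barcode for every barcode of the kit, made from 1 antibiotic and 1 vehicle library, with no filter on cells and no normalization applied before deposit. Per the submitters' processing notes, reads went through bcl2fastq and Cell Ranger on mm10. Their versions are not given in the sources used here. Such counts collapse PCR copies but keep UMIs that droplets pick up from free RNA.

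Both matrices were read whole with Python 3.11.15, numpy 2.4.6, scipy 1.17.1 and pandas 2.3.3, and figures were drawn with matplotlib 3.10.9. Members, shared barcodes and called cells were defined as stated in the results. The members and gene lists were chosen with earlier results of these data known, and the limit for shared barcodes after their values were seen. Counts were summed over members and divided by all their UMIs (CPM). Ratios carry the exact conditional interval of 2 Poisson counts, shares the Clopper-Pearson interval, and the ratio of ratios the exact conditional interval of an odds ratio. The ratio interval was tested on simulated data. Genes needed 30 UMIs in both sides together, and a fold of 1.5 was the limit. No doublets were called on these barcodes. Positions come from GENCODE vM21, and barcode sequences from the deposited lists, which are identical for both libraries.

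Named genes were *Camp*, *Ngp*, *Ltf*, *Retnlg*, *Il1b*, *Cxcr2*, the cell type markers, from each list up to 4 genes of highest mean CPM, and 10 genes in each direction ranked by the interval bound closest to 1, at 200 CPM or more in the higher library. Ribosomal, mitochondrial, globin, antibody and T cell receptor genes and markers of other cells were left out of that ranking. The comparison of shared with private members, added after the sharing was seen, used 15 each. The genes compared at shared sequences and those of other shared barcodes were chosen after values were seen. Alternatives changed 1 limit, denominator, gene list or summary at a time. Of the cell type marker and gene lists, the genes found in the files were used, and *Acod1* is *Irg1* there.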

Additional observations from a re-analysis of the deposited data

How the results depend on the processing

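Each value was recomputed with 1 choice changed. The split by shared barcodes was added after seeing the data. Shared barcodes alone turned the log2 ratio of granule over mature UMIs round to -1.11, against 1.36 for all members, with granule shares of 99.7% and 99.9% and 33 of 262 genes past 1.5-fold in place of 83 of 322. Shared barcodes left out gave 1 and 15 members, a log2 ratio of members per called cell of -3.57 against -0.16, granule shares of 0% and 0%, no log2 ratio of granule over mature UMIs, and 26 of 47 genes (55.3%, against 25.8% for all members). Without barcodes that are members or called cells in the other library 62 and 148 members remained (log2 ratio -0.92), with granule shares of 95.3% and 91.8% and a log2 ratio of 0.87.

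At least 20 *S100a8* and *S100a9* UMIs left 40 and 77 members (log2 ratio -0.61), with granule shares of 95.1% and 88.4%. At least 200 UMIs left 6 and 26 (log2 ratio -1.78), with 70.6% and 63.7% and a log2 ratio of granule over mature UMIs of 0.45. Under each library's cell threshold, 1 antibiotic barcode dropped out, and the antibiotic granule share was 99.7% and the log2 ratio 3.69. Without barcodes with 2 or more lymphocyte marker UMIs the shares were 99.7% and 98.8%, the log2 ratio 1.90 and the genes past 1.5-fold 48. At 10% of UMIs from *S100a8* and *S100a9* the vehicle share was 95.7%. Thinned to 100 UMIs the shares were 99.7% and 99.01%, as means within barcodes 99.2% and 95.1% (log2 ratio 2.66), and with the longer gene lists 97.3% and 92.1%. Per barcode of the UMI window the log2 ratio of members was 0.64.

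Genes past the limit numbered 27 of 322 at 2-fold, 19 of 116 with at least 100 UMIs per gene, 395 of 969 with at least 10 and 151 of 322 with free RNA subtracted. The other 37 recomputed values stayed within 1.5 times the count or within the interval of the main value. No paired analysis was possible because each group has 1 library. With 1 library per group no difference between antibiotic and vehicle can be set against replicate spread. Depth limits private members most: a gene at 0 UMIs may lie at up to 2017 CPM in the private antibiotic barcode and 246 CPM in private vehicle barcodes, and at up to 112 and 80.3 CPM in shared members.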

Other observations

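Barcodes of the same UMI window outside the rule also held granulocyte transcripts, and again at shared sequences. Of those with under 10% mitochondrial UMIs, 1112 antibiotic and 1669 vehicle barcodes were shared with a barcode that was no called cell in the other library, and 387 and 1371 were private. *Elane* had 916 UMIs in shared antibiotic barcodes and 1069 in shared vehicle barcodes, 5835 and 4419 CPM, against 0 and 0 UMIs in private ones. *Prtn3* had 427 and 437 UMIs, *Mpo* 324 and 373, *Ctsg* (cathepsin G) 317 and 341 and *Ms4a3* 122 and 97, all against 0 in private barcodes of both libraries. Among these genes the members held little: 6.04% of antibiotic and 7.33% of vehicle *Elane* UMIs lay in members, and 75.04% and 79.5% in the other barcodes of the window.

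Genes of early B cells and of antibody-secreting cells were found in the same shared barcodes. *Vpreb1*, part of the surrogate light chain of pre-B cells, had 93 UMIs in shared antibiotic barcodes and 131 in shared vehicle barcodes, against 0 and 2 in private ones. *Igll1*, its partner, had 86 and 95 UMIs, against 0 and 0. *Vpreb3*, also of B cell precursors, was in both kinds, with 97 and 103 UMIs in shared barcodes, against 40 and 96 in private ones, 3.85-fold (2.64 to 5.72) and 2.35-fold (1.76 to 3.14) higher per UMI in shared barcodes. *Jchain*, which joins IgA and IgM, was 18.6-fold higher in shared than in private antibiotic barcodes (9.76 to 39.8) and 18.1-fold in vehicle barcodes (10.6 to 33.3). *Cd79a*, a subunit of the B cell receptor, was lower in shared barcodes, at ratios of 0.477 (0.376 to 0.601) and 0.546 (0.458 to 0.646). *Cd74* was lower in shared barcodes of both libraries, at 1682 and 3696 CPM, against 9046 and 10707 CPM in private ones. These genes were chosen after their values were seen, and no test was run.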
